A study of Mus musculus with 23 samples.

Results

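The cytosolic ribosome is built from ribosomal RNA and a set of small, abundant proteins of its large (60S) and small (40S) subunits. The genes of these proteins (Rpl and Rps) were followed in the whole brains of adult male mice whose recipient mothers had eaten a control, a protein-restricted, or a folic acid-supplemented protein-restricted diet. Members were all array probes with a gene name of Rpl or Rps followed by a number, or Rplp0, Rplp1, Rplp2, or Rpsa, without the Rps6 kinases. This rule found 178 probes with 86 gene names among 39429 probes. They comprised 104 probes for 46 large-subunit genes, 63 probes for 30 small-subunit genes, and 9 probes for 8 paralogues, and 2 further probes had names that fit the rule (Rps19bp1, a binding partner of Rps19, and Rps4y2). A single probe was present for 31 gene names, and the others had up to 7 (Rpl17).

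Ribosomal protein genes are active in every cell, and their products are needed in near-equal amounts, so that their mRNAs usually move together. Most of these mRNAs begin with a run of pyrimidines, the terminal oligopyrimidine (TOP) tract, through which the mTORC1 kinase adjusts their translation to the supply of amino acids. The mouse genome also carries a large number of processed pseudogenes made from ribosomal protein mRNAs, and the heterozygous loss of several of these genes causes Diamond-Blackfan anemia in humans. To show the tract, the 30 bases around the annotated start (15 before and 15 after) were read from the RefSeq promoter table (GRCm38.p6), with the pyrimidine run in capitals from the first match to its end. The motifs were CTTTC and CTTTT, and likewise CTCTT and CTTCC. The windows lie at chr4:86857353-86857382 (minus strand) for Rps6, chr7:4792950-4792979 (plus strand) for Rpl28, and chr2:39005117-39005146 (minus strand) for Rpl35.
Rps6: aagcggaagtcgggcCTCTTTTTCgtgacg
Rpl28: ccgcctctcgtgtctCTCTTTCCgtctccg
Rpl35: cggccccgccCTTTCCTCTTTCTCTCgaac
At least 1 of the 4 motifs, which can overlap and were sought on the strand of the gene only, stood in 28 of 65 promoters (43.1%) of the 55 subunit genes that matched the table by symbol, of 76 sought. The share over all 32851 promoters was 15.3%. A match was not required to begin at the annotated start, so these shares do not count tracts at the start alone. The marked run begins at that start in Rps6 and Rpl28 and 5 bases before it in Rpl35.

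The embryos were made by in vitro fertilization of C57BL/6J gametes and transferred to ICR females, and after cesarean delivery the pups were raised by ICR foster mothers and ate the control diet from weaning. From before the transfer until delivery, the recipient females received 1 of 3 diets of equal energy: the AIN93G-based control diet (CD, 20% casein and 0.02% folic acid), the protein-restricted diet (PR, 5% casein and 0.02% folic acid), or the PR diet with supplemental folic acid (FA, 5% casein and 0.1% folic acid). All groups therefore share the embryo transfer and the fostering by ICR females, and the PR and FA groups share the low casein. The study's methods give the foster mothers the control diet alone in the section on diets, but the experimental diets in the section on embryo transfer. Its results name all 3 diets for them. A difference in foster diet between the groups can thus not be told from these sources. RNA of the whole brain (cerebrum and cerebellum) of 4 progenies per group, taken at 19 weeks of age after behavioral tests, was hybridized with 1 Cy3-labeled Agilent array per mouse. In bulk tissue of this kind, fewer cells of a type and less RNA per cell cannot be told apart. Which mice were littermates is not given in the sources used here, and P values measure the spread between these mice.

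The 4 arrays of each group lay on 1 slide of their own, so slide and diet cannot be told apart. Spots that exceeded their local background by the criterion of the scanner software numbered 27068 to 28458 per array in CD, 31266 to 33478 in PR, and 30408 to 31672 in FA, and the mean net signal of the negative controls was 28.1 to 34.8, 42.7 to 51.2, and 39.3 to 47.6 in the same order. The pituitary markers (6 probes, 2 of them well above background on all arrays, and none at 0) had a summed normalized intensity of 2042 to 2116 in CD, 1036 to 1244 in PR, and 684 to 1584 in FA progenies, and 2 of the 6, Gh and Prl, were lower in both PR and FA. Of the blood, choroid plexus, and muscle markers, 0 of 13 probes passed the test in either comparison with CD, and with 75th percentile scaling (each array divided by its 75th percentile) 1 choroid plexus and 1 blood probe were lower in FA. Of the 6 microglia probes, 2 were higher and 2 lower in each comparison, with a summed intensity of 23590 to 25509 in CD, 21763 to 24481 in PR, and 21991 to 22884 in FA. Of the 4 lymphocyte probes, 1 of them well above background on all arrays, 1 was higher and 1 lower in PR and 1 was higher in FA, with sums of 494 to 800, 449 to 582, and 370 to 682. The defining markers of the labelled tissue, 15 probes of neuronal, astrocyte, and oligodendrocyte genes, gave signals well above background on every array, and 5 of them were higher and 3 lower in PR, and 4 higher and 3 lower in FA. The part of these array and tissue differences in the values below was not tested.

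Ribosomal protein probes gave strong and even signals. Of the 178 probes, 173 (97.2%) were well above background on all 12 arrays, compared with 60.2% of all probes, and 132 of them were among the brightest 10% of such probes (called bright probes here). The exceptions were Rpl39l (11 arrays), Rpl3l (10 arrays), 1 probe of Rps27a (10 arrays), and both probes of Rpl10l, a testis-specific copy of Rpl10, which were not well above background on any array. The median standard deviation within groups was 0.065 on the log2 scale over the 173 probes and 0.103 over all probes so measured. Among the other bright probes it was 0.070.

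The question of the first comparison was whether the protein-restricted diet of the recipient mothers changed these transcripts in the adult brain. Among probes well above background, a few fell by up to about 2-fold in PR progenies, led by Rps3, Rpl17, Rps24, and Rpl7a, and smaller rises were seen for Rps2 and Rpsa, while most of the family differed from CD by less than the test could call. At an adjusted P under 0.05 (limma, adjusted over all 39429 probes), 31 of the 178 ribosomal protein probes were lower in PR than in CD and 9 were higher. Over all probes, 16.6% were lower and 13.4% were higher, and the members' shares were 17.4% and 5.06%. The lower calls thus had about the share of the whole array, and the higher calls were fewer. Of the 132 bright members, 14.4% were lower and 4.55% higher, where the other bright probes had 11.4% and 15.3%. By gene name, 25 had a lower probe, 8 had a higher probe, and 53 had no called probe. A name with more probes has more chances of a call, and no share over all gene names is given here. At the limits of the study (at least 2-fold, adjusted P under 0.0001), 1 member was called, compared with 0.0862% of all probes. The median fitted difference of the 173 probes was -0.041 on the log2 scale, compared with -0.006 over all probes well above background and 0.008 over the other bright probes, and 60.7% of the 173 were below 0 (all probes 51.1%).

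How the arrays were scaled decided how far the family as a whole appeared to fall. When each array was scaled to its 75th percentile instead of the deposited qspline normalization, 95 ribosomal protein probes were lower in PR and 5 were higher, with 21.0% and 15.9% of all probes. Under this scaling the median of the 173 probes was -0.192 and that of all probes was -0.010. The other bright probes moved with the scaling as well, to a median of -0.131, and 41.3% of the brightest 10% were then lower in PR, compared with 11.6% with the deposited values. Both sets of values were made from the same spot signals, and which of the scalings is nearer to the RNA in the tissue was not tested.

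**Figure D1:**
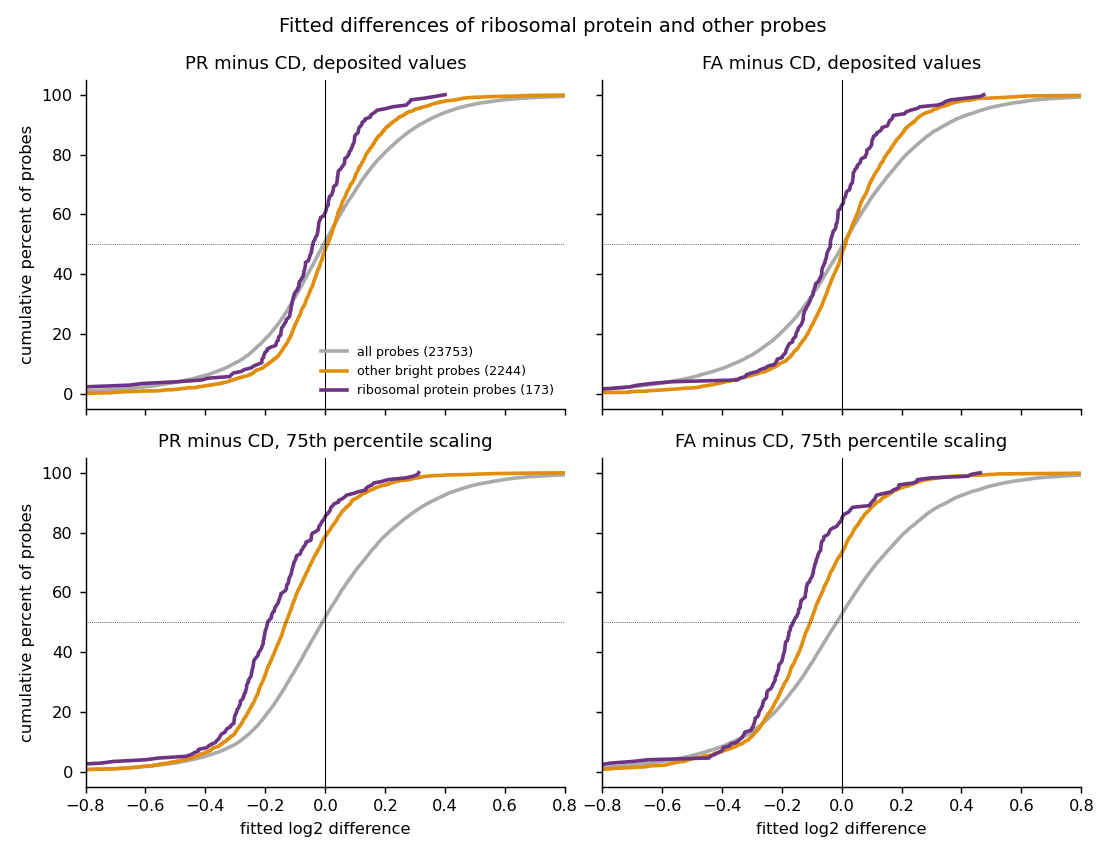
Cumulative percent of probes (vertical axis) at or below each fitted log2 difference from CD (horizontal axis), for PR (left) and FA (right) with the deposited values (top) and with 75th percentile scaling (bottom). The lines are 173 ribosomal protein probes, 2244 other bright probes, and all 23753 probes well above background on all arrays. With the deposited values the 3 lines cross 50% near 0, and with 75th percentile scaling the lines of the ribosomal protein and the other bright probes both lie to the left of 0.

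Among the called probes, the largest fall in PR was that of Rps3, a protein of the 40S head that lies at the mRNA entry. Probe A_51_P318640, which has no coordinate in the files and holds the polyadenylation signal AATAAA, measured 14.75, 14.69, 14.49, and 14.48 on the log2 intensity scale in the CD progenies and 13.50, 13.61, 13.59, and 13.58 in the PR progenies. In the FA progenies it measured 13.38, 13.70, 13.81, and 13.69. Every CD mouse was above every PR and FA mouse. The fitted difference was -1.03 ± 0.094 (SE) in PR, a 2.05-fold lower intensity (adjusted P = 7.8e-05), and -0.96 ± 0.094 in FA (adjusted P = 8.2e-05). The other probes of Rps3 differed less from CD. Probe A_55_P2109222 fell by 0.32 in PR (adjusted P = 0.014) and A_55_P2038237 differed by -0.21 (adjusted P = 0.054).

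Rpl17, which lies near the exit of the peptide tunnel of the 60S subunit, had 7 probes, and 2 of them fell. Probe A_55_P2181084 measured 13.60, 13.67, 13.76, and 13.79 in CD, 12.46, 12.75, 12.96, and 12.81 in PR, and 12.80, 13.02, 13.24, and 12.93 in FA progenies. The CD values did not overlap with either group. The difference was -0.96 ± 0.12 in PR (adjusted P = 0.00023) and -0.71 ± 0.12 in FA (adjusted P = 0.0011). Probe A_55_P2057519 fell by 0.90 in PR (adjusted P = 0.0016) and by 1.02 in FA (adjusted P = 0.00065). The other 5 Rpl17 probes lay between -0.20 and 0.17 in PR and none of them passed the test there.

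Rps24, a 40S protein that is one of the genes of Diamond-Blackfan anemia, was measured by 3 probes. Probe A_55_P1993880 measured 13.25, 13.48, 13.56, and 14.03 in CD, 12.76, 12.54, 12.85, and 12.94 in PR, and 12.89, 12.84, 13.05, and 13.00 in FA progenies. The groups did not overlap with CD, although the CD mice were spread widely. The fitted difference was -0.81 ± 0.15 in PR (adjusted P = 0.0026) and -0.63 ± 0.15 in FA (adjusted P = 0.0076). A second probe fell by 0.24 in PR (adjusted P = 0.014), and the third, A_55_P1955243, differed by -0.04 (adjusted P = 0.59).

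Rpl7a, a 60S protein on the solvent side of the subunit, showed the narrowest groups among the strong falls. Probe A_55_P2001347 measured 15.23, 15.30, 15.34, and 15.41 in CD, 14.73, 14.67, 14.72, and 14.72 in PR, and 14.61, 14.62, 14.61, and 14.70 in FA progenies. All CD values stood clear of the others. It fell by 0.61 in PR (adjusted P = 7.8e-05) and by 0.68 in FA (adjusted P = 3.2e-05), and probe A_55_P2037922 fell by 0.66 and 0.78. The other Rpl7a probes differed by -0.16 and -0.0001 in PR, with adjusted P of 0.30 and 1.00. These falls of Rps3, Rpl17, Rps24, and Rpl7a were called under both scalings.

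Other falls in PR were smaller. Rpl4 fell by 0.49 (adjusted P = 0.003), and Rpl24, which lies at the face between the subunits, fell by 0.41 and 0.15 with its 2 probes. Among genes with 2 or more probes well above background on all arrays, Rpl24 was the 1 gene of 54 with every probe called in PR.

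The rises were led by 40S proteins. Rps2, at the mRNA entry, measured 14.56, 14.59, 14.64, and 14.54 in CD, 15.02, 14.95, 14.97, and 15.001 in PR, and 14.99, 14.86, 14.99, and 14.95 in FA progenies with probe A_55_P2048454. No CD mouse reached the others. The rise was 0.40 ± 0.042 in PR (adjusted P = 0.00012) and 0.36 ± 0.042 in FA (adjusted P = 0.00016). The second Rps2 probe differed by 0.06 in PR (adjusted P = 0.20).

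Rpsa, which is both a 40S protein and the laminin receptor, measured 12.83, 12.96, 12.76, and 12.79 in CD, 13.30, 13.09, 13.21, and 13.20 in PR, and 13.35, 13.22, 13.40, and 13.26 in FA progenies with probe A_55_P2017850. The lowest PR and FA mice were above the highest CD mouse. The rise was 0.37 ± 0.063 in PR (adjusted P = 0.0019) and 0.47 ± 0.063 in FA (adjusted P = 0.00035). Of the other Rpsa probes, A_55_P2038077 rose by 0.22 in PR (adjusted P = 0.0092) and 0.32 in FA (adjusted P = 0.0011), and the remaining 2 differed by 0.10 and -0.07 in PR.

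Rps7, a 40S protein, measured 14.56, 14.58, 14.74, and 14.86 in CD, 14.92, 14.96, 14.97, and 14.97 in PR, and 14.88, 14.83, 14.97, and 14.89 in FA progenies. The PR mice were above every CD mouse, and 1 FA mouse was below the highest CD mouse. The rise was 0.27 in PR (adjusted P = 0.011) and 0.21 in FA (adjusted P = 0.030), and the FA call was lost when any 1 of 5 arrays was left out (adjusted P up to 0.080). In PR, 1 probe of Rpl26 rose by 0.28 (adjusted P = 0.034). The Rpl26 call was lost without any 1 of 4 arrays, with an adjusted P up to 0.085. Under 75th percentile scaling, the rises of Rps2 and of Rpsa probe A_55_P2017850 were called in PR (0.27 and 0.31), and those of Rpl26, Rps7, and Rpsa probe A_55_P2038077 were not, with differences of 0.06 to 0.21.

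**Figure D2:**
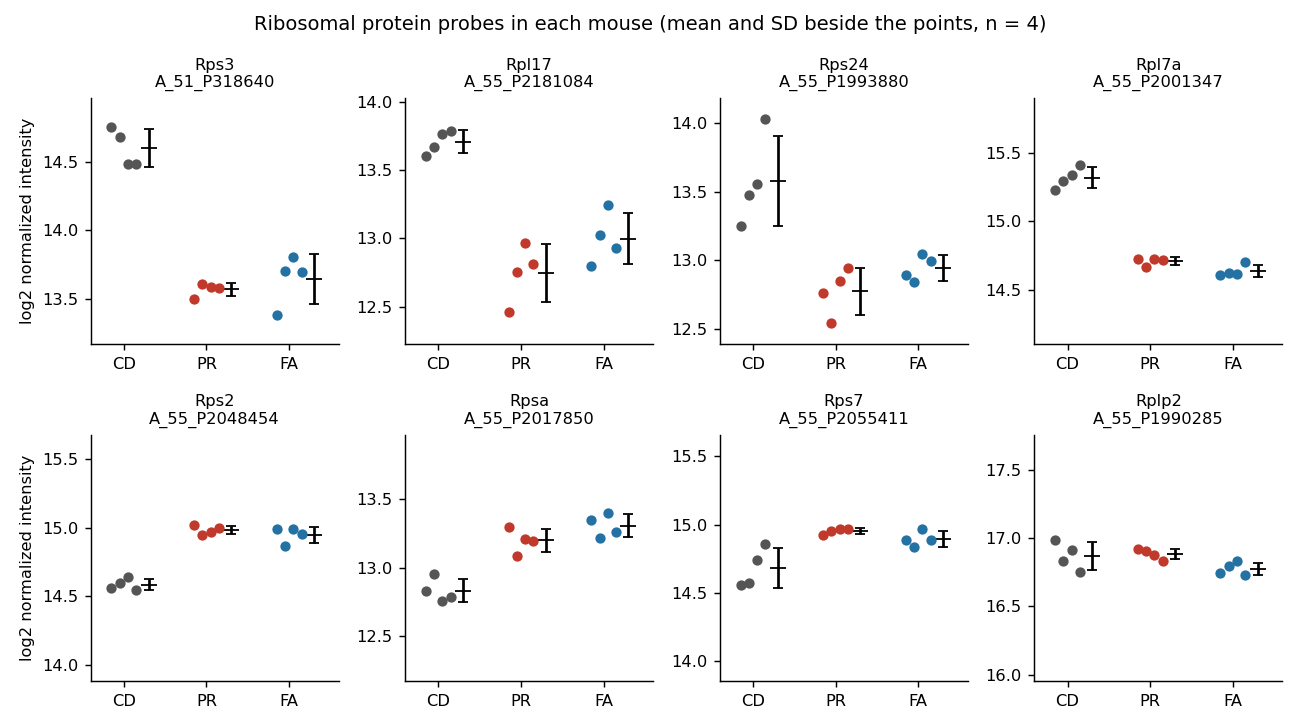
Log2 normalized intensity (vertical axis, each panel spanning an equal range) of 8 ribosomal protein probes in each of the 4 mice per group, with the mean and SD beside the points. CD lies above PR and FA without overlap for Rps3, Rpl17, Rps24, and Rpl7a and below them for Rps2 and Rpsa, and the groups overlap for Rplp2.

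The FA diet was compared with CD to ask whether the same transcripts were altered when folic acid had been added to the low-protein diet. Both comparisons use the same CD mice, so their values are given side by side without a measure of likeness. In FA progenies, 29 probes were lower and 14 were higher than in CD, 16.3% and 7.87% of the members, while over all probes 18.0% were lower and 16.4% were higher. By gene name, 25 had a lower probe and 13 a higher probe, again without a share over all gene names. No member passed the limits of the study, compared with 0.195% of all probes. The median difference of the 173 probes was -0.037 (all probes 0.006, other bright probes 0.012). With 75th percentile scaling, 86 probes were lower and 7 were higher (all probes 23.2% and 16.4%), the median was -0.159, and the other bright probes had a median of -0.104.

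The falls of Rps3, Rpl17, Rpl7a, and Rps24 given above were all called in FA as well. Beside Rpsa and Rps2, probes of Rps4x and Rpl13a rose in FA. Probe A_55_P2101910 of Rpl13a, a 60S protein known for silencing inflammatory mRNAs once it leaves the ribosome, rose by 0.34 (adjusted P = 0.0013). Probe A_55_P2081829 of Rps4x rose by 0.35 (adjusted P = 0.025, or 0.062 without FA replicate 1 and 0.051 without FA replicate 2). The second Rps4x probe, A_55_P1960764, differed by -0.10 in FA and -0.04 in PR and was called in neither. Under 75th percentile scaling, probe A_55_P2081829 differed by 0.24 with an adjusted P of 0.11. The rises of Rpsa, Rps2, and Rpl13a were called under that scaling too.

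FA and PR progenies were compared directly to measure what the added folic acid changed. None of the 178 probes passed an adjusted P of 0.05 in limma, with 0.228% of all probes higher and 0.386% lower, and 10 of the 178 had an unadjusted P under 0.05. The Tukey test of the study's methods, adjusted over all probes, also called 0. The median difference was 0.003 (all probes 0.010). The smallest P belonged to Rpl13a probe A_55_P2058953, which measured 15.08, 15.14, 15.22, and 15.23 in PR and 15.42, 15.37, 15.42, and 15.32 in FA progenies. The groups did not overlap. The difference was 0.22 ± 0.047 (adjusted P = 0.067, limma), and the adjusted P was 0.041 when dim probes were left out of the fit and 0.035 with a trend and robust variance model. This probe was lower in PR than in CD by 0.21 (adjusted P = 0.007) and differed by 0.01 between FA and CD. The next probes were A_55_P2101910 of Rpl13a (0.19, adjusted P = 0.17) and A_55_P2015989 of Rpl22 (0.13, adjusted P = 0.21).

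By subunit, the calls were as follows. The 60S proteins had 1 higher and 20 lower probes of 104 in PR, with a median of -0.050, and 7 higher and 18 lower in FA, with a median of -0.037. The 40S proteins had 6 higher and 7 lower probes of 63 in PR, with a median of -0.021, and 5 higher and 7 lower in FA, with a median of -0.037. The higher share in PR was 0.962% for the 60S and 9.52% for the 40S proteins, both below the 13.4% of all probes. The lower share in PR was 19.2% and 11.1%, with 16.6% over all probes. In FA, 6.73% of the 60S and 7.94% of the 40S probes were higher (all probes 16.4%), and 17.3% and 11.1% were lower (all probes 18.0%). No test of the difference between the subunits was made. With 75th percentile scaling, 1 higher and 62 lower 60S probes and 2 higher and 29 lower 40S probes were called in PR (3 and 55, and 3 and 26, in FA), and the medians of both subunits were below 0 in both comparisons.

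The proteins of the stalk, the flexible arm of the 60S subunit that recruits elongation factors, gave few calls with the deposited values and more with the other scaling. Rplp0, Rplp1, Rplp2, and Rpl12 had 7 probes, of which 1 was lower in PR (Rpl12, -0.13, adjusted P = 0.020) and 1 was higher in FA (Rplp0 probe A_55_P2135098, 0.14, adjusted P = 0.028). Of all probes, 16.6% were lower in PR and 16.4% higher in FA. When scaled to the 75th percentile, 6 of the 7 were lower in PR and 4 in FA (all probes 21.0% and 23.2%), and the median in PR was -0.20. The Rpl12 probe that fell, A_55_P1952690, has its coordinate on chromosome 10, whereas the gene lies on chromosome 2. It shares runs of bases with probes of Gm16519 and Gm7117, which differed by -0.32 and -0.27 in PR without passing the test. The other Rpl12 probe, A_55_P1954907, also placed on chromosome 10, differed by -0.02 in PR. The Rplp0 call was lost without any 1 of 5 arrays (adjusted P up to 0.071) and under 75th percentile scaling. Rplp2 measured 16.98, 16.83, 16.91, and 16.75 in CD, 16.92, 16.90, 16.87, and 16.83 in PR, and 16.74, 16.79, 16.83, and 16.73 in FA progenies. The groups overlapped, with a difference of 0.01 in PR (adjusted P = 0.88), which became -0.20 (adjusted P = 0.014) with 75th percentile scaling. Rplp1 differed by -0.12 in PR (adjusted P = 0.34) and by -0.20 in FA (adjusted P = 0.10).

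Rpl5 and Rpl11, which bind 5S ribosomal RNA and, when free of ribosomes, the p53 regulator Mdm2, had 4 probes. Rpl5 differed by 0.12 in PR (adjusted P = 0.16) and by 0.11 in FA (adjusted P = 0.20). Probe A_55_P2139673 of Rpl11 fell by 0.25 in PR (adjusted P = 0.026, up to 0.069 without any 1 of 4 arrays) and by 0.32 in FA (adjusted P = 0.0064). The other Rpl11 probes differed by -0.11 and -0.02 in PR and by -0.04 and -0.01 in FA. Rps6, the 40S protein phosphorylated by the S6 kinases downstream of mTORC1, differed by 0.08, -0.04, and -0.12 in PR with its 3 probes, and the last fell by 0.18 in FA (adjusted P = 0.0058). Its PR call (adjusted P = 0.048) was lost without any 1 of 10 arrays, with an adjusted P up to 0.12. Of the 34 probes of the 17 listed genes of Diamond-Blackfan anemia, 2 were higher and 5 lower in PR (5.88% and 14.7%, all probes 13.4% and 16.6%), and 1 was higher and 4 lower in FA (2.94% and 11.8%, all probes 16.4% and 18.0%). Under 75th percentile scaling, 0 were higher and 19 lower (55.9%) in PR, and 0 and 15 (44.1%) in FA. The whole family then had 2.81% higher and 53.4% lower in PR, and 3.93% and 48.3% in FA. Over all probes these shares were 15.9% and 21.0%, and 16.4% and 23.2%. Of the 4 probes of Rpl5 and Rpl11, 3 were lower in each comparison under this scaling.

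Paralogues, which can take the place of their partner in the ribosome or act beside it, moved in both directions. Of their 9 probes, 2 were higher and 4 lower in each comparison (22.2% and 44.4%), and 1 of the lower calls is a probe of Rpl10l at background. Over all probes, 13.4% were higher and 16.6% lower in PR, and 16.4% and 18.0% in FA. Only 5 of the 9 were well above background on all arrays, so these shares rest on few probes. Rpl7l1, a relative of Rpl7 found in preribosomes, measured 8.19, 8.07, 7.93, and 8.18 in CD, 8.42, 8.25, 8.44, and 8.37 in PR, and 8.45, 8.54, 8.68, and 8.55 in FA progenies. The groups did not overlap with CD. It rose by 0.28 in PR (adjusted P = 0.015) and by 0.46 in FA (adjusted P = 0.00089). The 4 probes of its partner Rpl7 differed by 0.09 to -0.28 in PR, and the lowest was called (adjusted P = 0.0011).

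Rpl22l1, the copy that is raised when Rpl22 is lost, rose by 0.17 in PR (adjusted P = 0.029) and by 0.21 in FA (adjusted P = 0.0088). The PR call was lost without any 1 of 4 arrays (adjusted P up to 0.077), and neither call was made with 75th percentile scaling, where the differences were 0.04 and 0.11. The probes of Rpl22 itself differed by 0.09 (adjusted P = 0.24) and -0.19 (adjusted P = 0.0074) in PR. Rpl36al and Rpl26l1 fell. Rpl36al fell by 0.21 in PR (adjusted P = 0.0033) and by 0.32 in FA (adjusted P = 0.00027), and its partner Rpl36a had 3 probes between -0.13 and -0.27 in PR, of which the lowest was called (adjusted P = 0.0016). Rpl26l1 fell by 0.31 in PR (adjusted P = 0.0022) and by 0.22 in FA (adjusted P = 0.012), while the 3 Rpl26 probes differed by 0.09 to 0.28.

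Rps27l, a p53 target gene, fell by 0.20 in PR (adjusted P = 0.014) and by 0.16 in FA (adjusted P = 0.032, up to 0.085 without any 1 of 5 arrays). The probes of Rps27 differed by -0.11 (adjusted P = 0.048) and -0.07 in PR, and the call was lost without any 1 of 11 arrays (adjusted P up to 0.11). The dim Rpl3l (partner Rpl3, 0.04) and Rpl39l (partner Rpl39, 0.03, -0.16, and -0.15) differed by -0.59 and -1.15 in PR, with an adjusted P of 0.14 each. The CD mouse of replicate 3 stood above the other CD mice in both, at 6.25 for Rpl3l and 7.61 for Rpl39l, where the others were at 4.89 to 5.03 and 4.996 to 5.61. Rpl10l was not well above background on any array, yet its probe A_55_P2088550 passed the test (adjusted P = 0.0002 in PR and 0.00025 in FA) and is counted among the lower members of both comparisons. No fold is given for it, and its partner Rpl10 differed by -0.003 to -0.06 in PR.

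Different probes of one gene often gave different values. Of 54 genes with 2 or more probes well above background on all arrays, the signs of all probes were the same in 26 in PR and in 25 in FA. The median range between the probes of a gene was 0.143 in PR and 0.168 in FA, and the range was over 0.5 in 4 and 5 genes. The widest ranges, 1.12 in PR and 1.25 in FA, were those of Rpl17. In FA, 1 Rpl17 probe (A_55_P2011674) rose by 0.23 (adjusted P = 0.040) while 2 others fell, the 1 case of opposite calls in a gene. This rise was lost without any 1 of 8 arrays (adjusted P up to 0.10) and with 75th percentile scaling. When the probes with the same gene name were averaged before the fit, 6 of 86 gene names were higher and 12 lower in PR. In FA, 8 were higher and 18 lower. No share over all gene names is given beside these counts, so they cannot be set against the whole array.

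**Figure D3:**
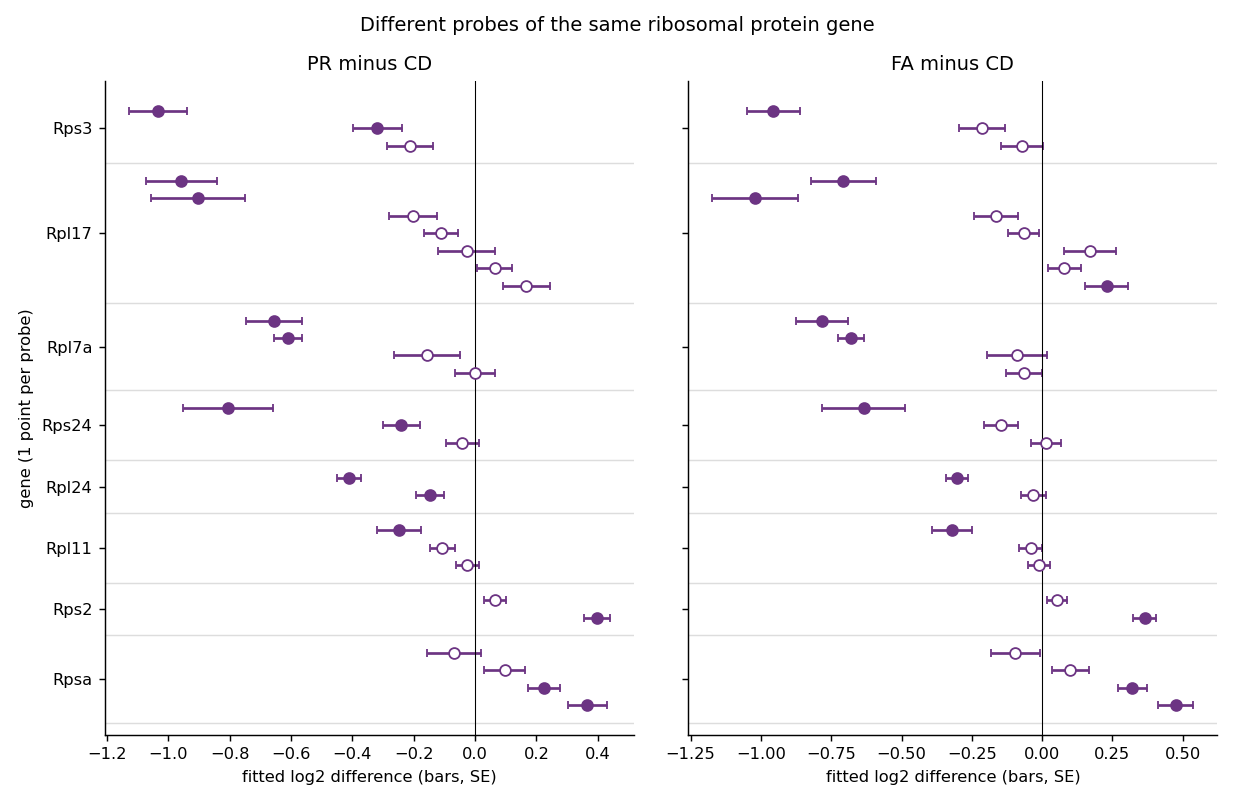
Fitted log2 difference from CD (horizontal axis, bars SE) of every probe of 8 ribosomal protein genes, for PR (left) and FA (right). Filled points have an adjusted P under 0.05 in limma, and a single gene such as Rpl17 or Rpl7a holds probes near -1 or -0.6 beside probes near 0.

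Sequence shared with other loci was common among these probes. A run of at least 20 bases in common with a probe of another gene name was found for 78 members (43.8%), compared with 2930 probes (7.43%) of the array. The partners were 147 probes, of which 92 carried a Gm or LOC name and 46 are pseudogenes in the current RefSeq. Of these partners, 38 were lower and 3 higher in PR (25.9% and 2.04%), and 36 were lower and 6 higher in FA (24.5% and 4.08%), with a median of -0.097 in PR and -0.062 in FA. The comparison set was 1707 probes outside the family that share a run with a probe of another name and were well above background on all arrays. Of these, 22.3% were lower and 13.1% higher in PR, and 22.0% were lower and 13.6% higher in FA. The higher share of the partners was below that of this set in both comparisons. The partner shares are over all 147 probes, of which 141 were well above background on all arrays. With 75th percentile scaling, 92 of the 147 partners were lower and 3 higher in PR, and 82 were lower and 3 higher in FA. Over all probes, this scaling gave 21.0% lower and 15.9% higher in PR, and 23.2% and 16.4% in FA. The whole family had 53.4% lower in PR and 48.3% in FA. The coordinate in the files (mm9) of 9 members lay on another chromosome than the gene (Rpl12, Rpl13, Rpl31, Rpl36, Rps29, and 1 probe of Rps4x), of 172 for which both are known. Members that share such a run had a median of -0.067 in PR, and the other members had a median of -0.018. All probes showed the same split, with -0.046 and -0.002. Labeled RNA of near-identical copies can bind the same probe, and how much each source gave was not tested.

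The Rps24 probe that fell is given with 3 partners, since all 3 differed from CD by values below 0 in PR. Its target in the files, chr14:25311190-25312666 (mm9, plus strand), spans more than the 60 bases of the probe and thus crosses an intron. The partners are given over the shared stretch, with capitals at the bases that differ from the Rps24 probe, counted from 1 at its 5′ end: LOC677113 at chr14:25311331-25312656 (positions 1 to 50), Gm4832 at chr17:88530338-88530397 (3 to 60), and CF786827 at chr17:71225462-71225521 (2 to 60).
Rps24: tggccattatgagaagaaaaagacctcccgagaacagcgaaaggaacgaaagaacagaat
LOC677113: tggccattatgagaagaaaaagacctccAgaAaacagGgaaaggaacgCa
Gm4832: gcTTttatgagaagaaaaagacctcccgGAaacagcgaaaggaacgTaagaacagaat
CF786827: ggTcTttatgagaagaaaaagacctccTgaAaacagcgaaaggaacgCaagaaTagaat
LOC677113 differed from the Rps24 probe by C29A, G32A, C38G, and A49C. It fell by 0.86 ± 0.14 (SE) in PR (adjusted P = 0.0013). Gm4832 differed by -0.71 ± 0.26 (adjusted P = 0.058), and CF786827 fell by 0.26 ± 0.088 (adjusted P = 0.047). The fall was therefore measured with the Rps24 probe and with 2 probes of similar sequence. The coordinates of LOC677113 lie within the Rps24 target, so by its coordinates this probe does not mark a separate locus. The Rps24 probe A_55_P1955243 in another stretch of the gene differed from CD by -0.04.

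Rpl7a is shown over a stretch of 30 bases that 3 of its probes share, because 2 of them fell and the third did not pass the test. Positions 1 to 30 of the first and second probes and positions 30 to 59 of the third were aligned by sequence, and capitals mark the bases that differ from the first. Probes A_55_P2001347 and A_55_P2037922 have the same coordinates in the files, chr2:26768759-26768818, and A_55_P2024080 lies at chr2:26768730-26768789 (mm9, plus strand).
A_55_P2001347: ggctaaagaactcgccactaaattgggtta
A_55_P2037922: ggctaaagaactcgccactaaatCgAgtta
A_55_P2024080: ggctaaagaactcAccactaaCttgggtta
The second differs from the first by T24C and G26A in this stretch and by 6 bases over all 60, and it fell by 0.66 in PR and by 0.78 in FA. The third overlaps with the first by 31 bases, in which it differs by G14A and A22C, and targets other bases with the rest of its length. Its difference was -0.16 ± 0.11 in PR (adjusted P = 0.30). Among the partners of probe A_55_P2001347 with other names, Gm5619 fell by 0.82 (adjusted P = 0.00071) and NAP018250-001 by 0.43 (adjusted P = 0.00094), whereas 3 others differed by -0.07 to -0.32 without passing the test. For Rpl17, the 5 partners of probe A_55_P2181084 ranged from -1.13 to -0.11 in PR, and 4 were called lower. The 5 partners of the other probe that fell, A_55_P2057519, went both ways. Of these, 3 were called lower, by up to 0.94 (Gm10294, adjusted P = 7.5e-05), while A_55_P2061134, which has no gene name in the files, rose by 1.22 in PR (adjusted P = 0.024) and by 1.45 in FA (adjusted P = 0.0092).

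Probes that rose are shown in the same way. The Rps2 probe A_55_P2048454 at chr17:24857583-24857642 is shown with Gm14583 over positions 8 to 60. The coordinates of Gm14583 (chr17:24857590-24857649) overlap with this stretch of mm9, so by its coordinates the Gm14583 probe does not mark a separate locus. The Rpsa probe A_55_P2017850 at chr9:120037601-120037660 (all plus strand) is shown as the probe of the largest rise in FA.
Rps2: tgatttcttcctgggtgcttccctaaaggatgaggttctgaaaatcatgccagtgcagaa
Gm14583: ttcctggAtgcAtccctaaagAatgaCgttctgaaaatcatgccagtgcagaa
Rpsa: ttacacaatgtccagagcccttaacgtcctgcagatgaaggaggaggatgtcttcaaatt
Gm14583 differed from the Rps2 probe by G15A, T19A, G29A, and G34C, as the capitals mark. Its difference was 0.16 in PR (adjusted P = 0.25) and 0.20 in FA (adjusted P = 0.14), where the Rps2 probe rose by 0.40 and 0.36.

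**Figure D4:**
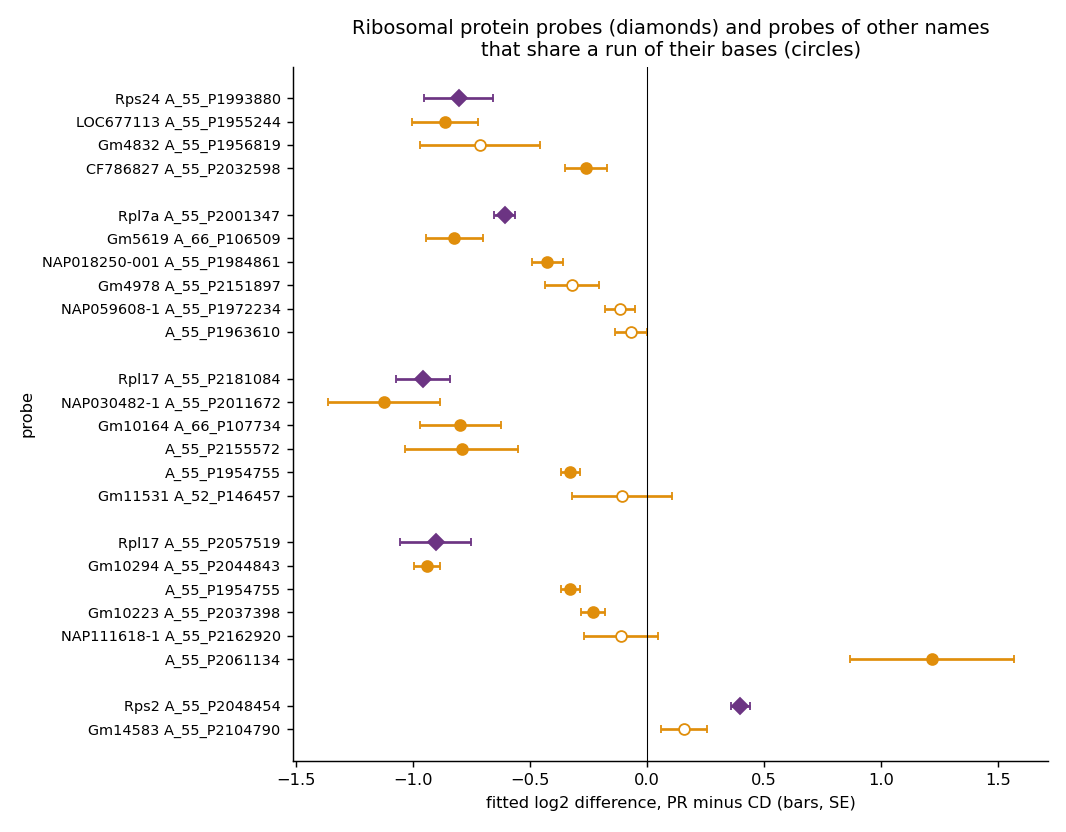
Fitted log2 difference between PR and CD (horizontal axis, bars SE) of 5 ribosomal protein probes (diamonds) and of the probes with other names that share a run of at least 20 bases with them (circles, filled at an adjusted P under 0.05 in limma). The partners of the Rps24 and Rpl7a probes shown and of Rpl17 probe A_55_P2181084 lie below 0, from -1.13 to -0.07, those of Rpl17 probe A_55_P2057519 lie between -0.94 and 1.22, and the partner of the Rps2 probe lies above 0.

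A polyadenylation signal (AATAAA or ATTAAA, sought on the strand of the probe, which places a probe near the end of a transcript) was held by 55 of the 173 probes (31.8%), compared with 18.8% of all probes with a signal above background on every array. The members with the signal had a median of -0.109 in PR, with 1 higher and 14 lower, and those without it had a median of -0.016, with 8 higher and 16 lower. The shares were 1.82% higher and 25.5% lower with it and 6.78% and 13.6% without it. Over all probes the medians were -0.052 with the signal and 0.009 without it, with 8.75% higher and 16.5% lower among the former and 18.3% and 13.8% among the latter. In FA the members had medians of -0.095 with it and -0.013 without it. Within the 28 genes that had probes of both kinds, the probes with the signal were lower in 17 in PR and in 18 in FA, and the median differences between the kinds were -0.038 and -0.027. No P was computed for these values.

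Within a group, ribosomal protein probes varied together more than other probes, as described by their deviations from the group means. The mean correlation between pairs of members across the 12 arrays was 0.125, compared with 0.002 for all probes and 0.008 for the other bright probes, and the points of each pair share array, scaling, and RNA. The median deviation of the members on an array was between -0.027 and 0.038 of its group mean, and that of all probes was between -0.008 and 0.015. With 75th percentile scaling the mean correlation was 0.260 for members and 0.086 for the other bright probes. Measured from the mean of all 12 arrays, the members' medians were 0.005 to 0.039 in CD, -0.031 to 0.021 in PR, and -0.033 to 0.033 in FA, so that the groups overlapped. With 75th percentile scaling, all CD arrays (0.077 to 0.146) were above all PR (-0.109 to -0.0001) and FA (-0.073 to 0.007) arrays. The other bright probes separated in the same way, with 0.061 to 0.104 in CD, -0.079 to -0.015 in PR, and -0.050 to 0.002 in FA.

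**Figure D5:**
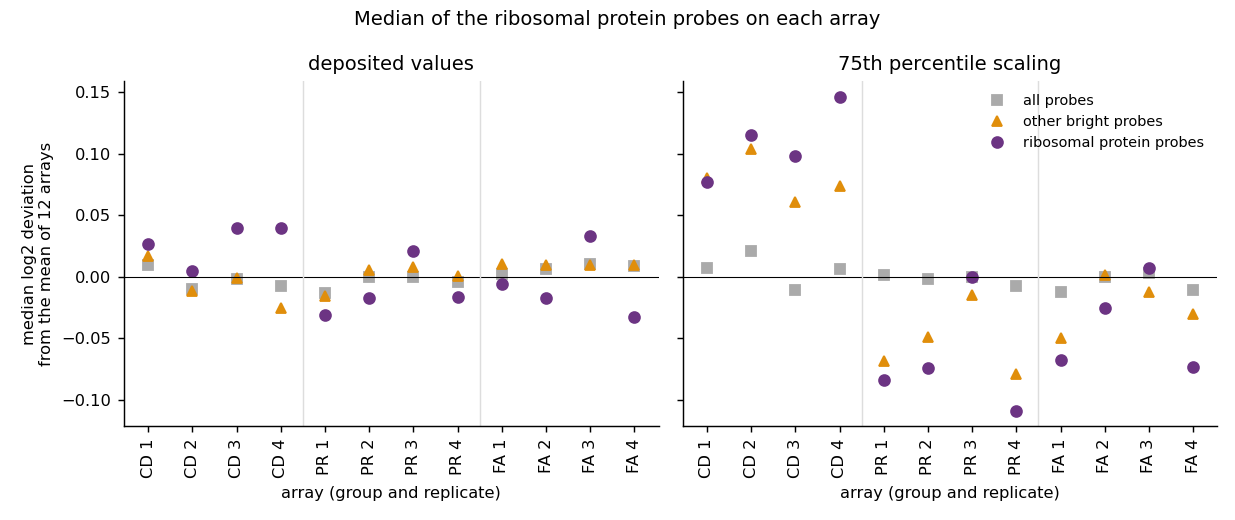
Median log2 deviation from the mean of the 12 arrays (vertical axis) of the ribosomal protein probes, the other bright probes, and all probes well above background, on each array (horizontal axis), with the deposited values (left) and 75th percentile scaling (right). The ribosomal protein medians of the 3 groups overlap on the left, and on the right the CD arrays (0.077 to 0.146) lie above the others together with the other bright probes.

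The other genes of translation gave mixed calls. Of 39 probes of 21 further genes whose mRNAs carry a TOP tract, such as translation factors, 8 were higher and 8 lower in PR (20.5% each), and 13 were higher and 4 lower in FA (33.3% and 10.3%). Over all probes, 13.4% were higher and 16.6% lower in PR, and 16.4% and 18.0% in FA. The counts became 4 higher and 16 lower in PR and 5 higher and 9 lower in FA with 75th percentile scaling. The balance thus turned in FA. Over all probes, this scaling gave 15.9% higher and 21.0% lower in PR, and 16.4% and 23.2% in FA. In PR, the poly(A)-binding protein Pabpc1 rose by 0.36 (adjusted P = 0.0004) and the initiation factor subunit Eif3f by 0.32 (adjusted P = 0.00065), while both probes of the elongation factor Eef1a1 fell, by 0.33 and 0.21 (adjusted P = 0.0018 and 0.023). Of 31 probes of 23 genes of ribosome biogenesis, 6 were higher and 5 lower in PR (19.4% and 16.1%), and 8 were higher and 5 lower in FA (25.8% and 16.1%). Scaled to the 75th percentile, 6 were higher and 7 lower in PR and 6 and 6 in FA. Of the box C/D snoRNP proteins, Nop58 fell by 0.42 in PR (adjusted P = 0.00016), and 1 probe of Nop56 rose by 0.37 (adjusted P = 0.00069) where its other probes differed by -0.09 and -0.06.

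Of 26 probes of 16 mTORC1 pathway genes, 4 were higher and 4 lower in PR (15.4% each, near the shares of all probes). In FA, 6 were higher and 7 lower (23.1% and 26.9%), above the 16.4% and 18.0% of all probes. The other scaling gave 4 higher and 6 lower in PR (15.4% and 23.1%) and 4 and 5 in FA (15.4% and 19.2%). Over all probes it gave 15.9% higher and 21.0% lower in PR, and 16.4% and 23.2% in FA. Both probes of the S6 kinase gene Rps6kb2 rose, by 0.65 and 0.86 in PR (adjusted P = 8e-05 and 9e-05) and by 0.85 and 1.01 in FA (adjusted P = 2e-05 and 7e-05), and the last was past the limits of the study. Akt1s1, which encodes the mTORC1 inhibitor PRAS40, rose by 0.55 in PR (adjusted P = 0.00045). The proteins of the mitochondrial ribosome, which are encoded by other genes, had 13 higher and 18 lower of 95 probes in PR (13.7% and 18.9%) and 16 higher and 14 lower in FA (16.8% and 14.7%), shares near those of all probes. With 75th percentile scaling, they had 11 higher and 27 lower in PR (11.6% and 28.4%) and 14 higher and 20 lower in FA (14.7% and 21.1%). Mrps5 and Mrpl9 rose by 0.40 and 0.31 in PR (adjusted P = 0.00084 and 0.00063). The lower probes of this list and of the mTORC1 list are counted above but not named. No probe of these lists passed the test between FA and PR.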

How the data were processed

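Spot intensities were measured by the authors with Feature Extraction 11.0.1.1 (annotation mm9), corrected for background within each array, and deposited. The authors then normalized the arrays with the qspline method and deposited a linear intensity for each probe, of which the log2 was analyzed here. A spline that maps each array onto a common distribution can remove a shift shared by bright probes.

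A model of the 3 diet groups over the 12 arrays was fitted in R 4.3.3 (limma 3.58.1), with Benjamini-Hochberg adjustment over 39429 probes (43020 spots, none saturated), and called at an adjusted P under 0.05, with the limits of the study beside it. Probes well above background on all 12 arrays entered medians. Named were the 5 largest rises and falls per comparison, the members past the limits of the study, and the stalk, 5S, Rps6, and Rpsa proteins. Paralogues with partners, opposite calls, and up to 3 genes with the smallest P per other list were named as well. To these, Rpl4, Rpl24, and the lowest probes of a gene were added after their values were seen. Some genes that met this rule are not reported here. The members and lists were chosen with earlier results of these data known. Python 3.11.15 with pandas 2.3.3 was used for the tables, and the fit was tested on simulated data. The number of arrays limits the precision. Alternatives were other scalings and background corrections, outlier and dim-probe filters, averaged probes, other variance models and tests, a replicate block, and leaving out each array. The promoter methylation samples were not analysed here.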

Additional observations from a re-analysis of the deposited data

Results flagged for a closer look

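In each group of 4 mice, the gap between the highest or lowest value and its nearest neighbor was divided by the whole range of the group for the named probes, and a gap ratio above Dixon's limit marked a mouse that stood apart. This was so in 13 of 177 groups, and chance gives about 1 in 20. High values were those of CD replicate 3 for Rpl11 probe A_55_P2010341 (ratio 0.892, at 15.45 with the nearest mouse at 15.39) and CD replicate 4 for Rpsa probe A_55_P2038077 (0.931, 15.89 against 15.72). Others were PR replicate 3 for Rpl39 probe A_55_P2182106 (0.935, 14.85 against 14.81), FA replicate 1 for Rpl11 probe A_55_P2139673 (0.860, 14.91 against 14.74), and FA replicate 4 for Rpl7a probe A_55_P2001347 (0.843, 14.70 against 14.62). FA replicate 3 was high for Rpl26 probe A_55_P2178525 (0.866, 15.65 against 15.58), Rpl26l1 (0.941, 13.03 against 12.88), and Rpsa probe A_55_P1970700 (0.896, 16.43 against 16.33). Low values were those of CD replicate 4 for Rpl22 probe A_52_P391718 (0.919, 12.73 against 12.84), PR replicate 1 for Rplp0 probe A_55_P2135098 (0.844, 15.93 against 16.04), and PR replicate 2 for Rpl7a probe A_55_P2001347 (0.837, 14.67 against 14.72). FA replicate 4 was low for Rplp1 (0.902, 15.80 against 16.19) and Rps27 probe A_55_P2155438 (0.855, 16.22 against 16.31).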

How the results depend on the processing

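Scaling moved the family most. With 75th percentile scaling, 100 members in place of 40 were called in PR, 93 in place of 43 in FA, and the medians were -0.19 in PR, -0.16 in FA, and 0.029 between FA and PR. The widest median deviation of the members on an array was then 0.068 in place of 0.038. Under that scaling Rpl3, Rpl7 probe A_55_P2081168, and Rplp2 turned from differences near 0 to falls in PR of -0.15 (adjusted P = 0.043), -0.15 (adjusted P = 0.030), and -0.20 (adjusted P = 0.014). Averaging the probes of a gene left 18 calls in PR and 26 in FA, where fewer features were tested and no share over all gene names is given. The limits of the study left 1 call in PR and 0 in FA. Between FA and PR, leaving out dim probes and a trend and robust variance model each gave 1 call. Leaving out 1 array gave 31 to 47 calls in PR, 33 to 50 in FA, and 0 between FA and PR, and medians of -0.052 to -0.032, -0.051 to -0.026, and -0.012 to 0.0100. Of 53 called differences of named probes, leaving out 1 array ended 15. The Tukey test kept 43 of the 53 and 75th percentile scaling 42. Replicate numbers were shared by the groups without pairing the samples (same-number correlations -0.063 to 0.196), and with the replicate number as a block 35 members were called in PR, 41 in FA, and 0 between FA and PR. The causes were not tested.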
